A study of Mus musculus with 8 samples.

Results

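MHC class II molecules are cell-surface proteins that hold peptides from engulfed material for CD4 T cells to read. The 7 genes described here make that display in the mouse, and were chosen by name from a list written for this work: *H2-Aa*, *H2-Ab1* and *H2-Eb1* (the chains of the surface molecules), *H2-DMa* and *H2-DMb1* (the peptide editor), *Cd74* (the invariant chain) and *Ciita* (the transactivator). They were read by 8 probes, 2 for *H2-Ab1* and 1 for each of the others, of 55681 probes that were not controls. The probes that could be given a gene symbol stood for 21154 genes, of which these were 7.

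The messenger RNA came from BV-2, mouse microglia (the macrophages that reside in the brain) that a retrovirus made able to divide without limit. All cells were BV-2 and were kept for 24 h in 1 of 4 conditions: untreated (control), lipopolysaccharide (LPS) at 1 µg/mL, HF at 100 µg/mL, or LPS and HF together at the same doses (LPS+HF). LPS is an outer-membrane component of Gram-negative bacteria that macrophages sense through Toll-like receptor 4. HF is the hexane fraction of the mushroom *Amauroderma rugosum*. Each condition had 2 single-colour arrays, 8 in all. The duplicates are described as biological, but no source used here says that they came from separate cultures, so a p-value measures the spread between these samples, which may be partly technical. The RNA is from whole cultures of 1 line, so fewer cells expressing a gene and less RNA per cell cannot be told apart.

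In a class II molecule an α chain pairs with a β chain, as that of *H2-Aa* does with that of *H2-Ab1*, while *H2-Eb1* encodes another β chain. The new pair binds the invariant chain, which fills the groove and directs it to the endosome, where proteases cut the invariant chain down to a short fragment. The DM editor then releases that fragment so that peptide can load. CIITA does not bind DNA itself but docks on factors held at the X and Y boxes before these genes, and interferon-γ is the best known inducer of *Ciita*. Resting microglia are known for low class II levels, which rise under inflammation.

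Promoter sequence is shown for 3 of the genes, because boxes of this kind stand before *H2-DMb1*, which was read in BV-2, and before *H2-Aa* and *H2-Eb1*, which were not. Windows of 250 bases before the RefSeq transcription start were searched for 4 of the 7 genes, on mouse build GRCm38.p6. The search left out every window of a whole chromosome, so a gene without a window here may still have an annotated start. Each is written 5′ to 3′ on the gene's own strand. Capitals mark the Y box letters TGATTGG, the X box letters AACNGATGA and the CRE-like X2 box letters TGACGTCA. *H2-Aa* lies on the minus strand with its window at chr17:34287824-34288073, *H2-Eb1* on the plus strand at chr17:34305617-34305866, and *H2-DMb1* on the plus strand at chr17:34152941-34153190.
H2-Aa: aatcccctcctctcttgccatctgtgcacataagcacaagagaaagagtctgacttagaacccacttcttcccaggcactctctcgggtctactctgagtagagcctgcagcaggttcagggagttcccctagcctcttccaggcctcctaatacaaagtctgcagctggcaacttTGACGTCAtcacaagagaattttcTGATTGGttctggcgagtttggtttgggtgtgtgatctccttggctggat
H2-Eb1: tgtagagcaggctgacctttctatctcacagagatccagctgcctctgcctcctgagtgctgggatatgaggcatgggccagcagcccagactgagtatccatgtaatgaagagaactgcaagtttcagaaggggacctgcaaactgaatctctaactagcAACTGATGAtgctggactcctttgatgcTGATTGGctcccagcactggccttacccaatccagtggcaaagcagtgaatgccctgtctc
H2-DMb1: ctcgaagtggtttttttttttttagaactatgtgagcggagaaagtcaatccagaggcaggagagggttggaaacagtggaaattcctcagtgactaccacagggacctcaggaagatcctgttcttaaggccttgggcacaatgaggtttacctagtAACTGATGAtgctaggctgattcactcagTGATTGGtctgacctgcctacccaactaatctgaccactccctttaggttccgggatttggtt

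The Y box of *H2-Aa* lay 50 to 44 bases before the start, with the CRE-like X2 box at 74 to 67. In *H2-Eb1* the Y box lay at 61 to 55 and the X box at 89 to 81, and in *H2-DMb1* they lay at 63 to 57 and 92 to 84. Both strands were searched, and the matches shown do not overlap. The search took 32851 windows of this length before the starts of mouse genes, with a whole chromosome left out. The Y box letters occurred in 7.23% of them, the X box letters in 0.572% and the CRE-like letters in 1.55%. A Y box together with either of the others occurred in 0.17%, or 56 windows. Both windows of *H2-DMa*, which has 2 annotated starts, held none of these letters. The patterns were written with the class II promoters in view, so the matches describe the windows and are not evidence of binding.

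In every sample BV-2 cells gave a signal for the invariant chain and both DM chains but almost none for the classical surface chains or *Ciita*. *Cd74*, *H2-DMa* and *H2-DMb1* were well above background on 8 of 8 arrays, by the scanner software's own call for a spot that stands clear of its surroundings. *H2-Aa*, *H2-Eb1* and *Ciita* were so on 0 of 8. *H2-Ab1* was well above background on 1 of 8 arrays by the first of its probes and on 0 of 8 by the second. LPS, HF and their combination brought none of these 4 genes above background on both arrays of a group.

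The levels below are log2 processed signals after subtraction of the array's 75th percentile, so 0 stands for that percentile. Probes bind with unequal strength, so a level is compared between samples and never between genes.

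**Figure D1:**
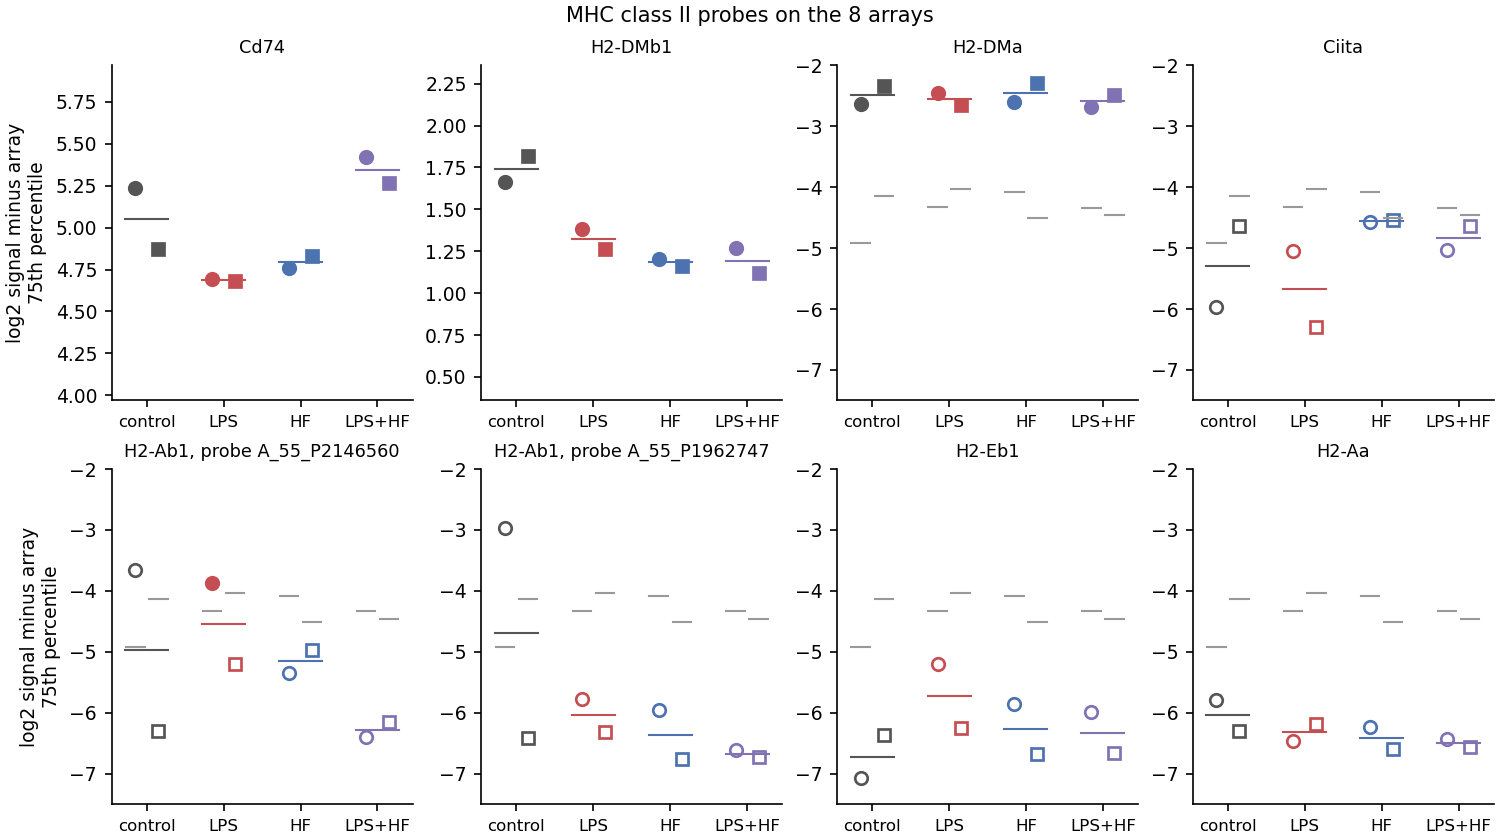
Level of each class II probe (y axis, log2 signal minus the array's 75th percentile) in the 4 groups (x axis). Circles are replicate 1 and squares replicate 2, filled where the spot was well above background. Horizontal lines are group means, and short grey ticks give the lowest level of any probe above background on that array. *Cd74* and *H2-DMb1* have y axes of their own. The *Cd74* arrays of LPS+HF, at 5.42 and 5.27, lie above all the others, and every symbol of *H2-Aa*, *H2-Eb1* and *Ciita* is open.

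Among the surface chains, *H2-Aa* had processed signals from 3.21 to 6.08 over the 8 arrays and *H2-Eb1* from 1.83 to 8.31. The lowest signal of any probe well above background was 8.12 to 26.1, depending on the array. On the log2 scale this limit ranged from -4.92 to -4.04, while *H2-Aa* read -5.79 and -6.29 in the control, -6.46 and -6.19 with LPS, -6.24 and -6.59 with HF, and -6.44 and -6.56 with LPS+HF. All 8 values of *H2-Aa* lay under their own array's limit, and no order among values below background is read here. A level under this limit was not detectable, which does not show that the gene was silent.

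*H2-Ab1*, the β partner of *H2-Aa*, was the exception among the chains, on 1 array. Its probe A_55_P2146560 gave a signal of 19.3 on LPS replicate 1, well above background, and of 7.75 on LPS replicate 2, which was not. On control replicate 1 the same probe read 19.6 without being well above background there, and on the other 5 arrays it read 3.31 to 15.2. The second probe, A_55_P1962747, read 31.6 on control replicate 1 and 3.06 to 5.55 on the other 7 arrays, none of them well above background. That spot lies in an area of control replicate 1 that was dimmed before the scanner's trend correction and is masked in the spatial correction. The LPS arrays differed from each other in this call, and neither probe separated LPS from control.

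*Ciita*, the switch of the group, read 3.96 and 10.6 in the control, 8.57 and 3.64 with LPS, 14.5 and 20.2 with HF, and 16.0 and 18.3 with LPS+HF as processed signal. The arrays with HF were brighter throughout, with a 75th percentile of 346 to 527 against 247 to 286 without HF. After subtraction of that percentile *Ciita* stood at -5.96 and -4.63 in the control, -5.04 and -6.30 with LPS, -4.58 and -4.55 with HF, and -5.04 and -4.63 with LPS+HF. No value of *Ciita* was well above background, and each lay under its array's limit. The only probe for it was designed on 1 transcript, and other starts of the gene were not analysed here.

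With no filter on dim probes, limma was also fitted to these 4 genes in all 5 comparisons described below. Their Benjamini-Hochberg adjusted p ranged from 0.38 to 1. The widest difference was that of *H2-Ab1*, -1.74 ± 0.905 (SE, n = 2 a group) for LPS+HF minus LPS in limma, with an adjusted p of 0.49.

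Apart from *Cd74* and *Ciita*, the genes lie close together on mouse chromosome 17. Detection is given in gene order from *H2-Oa* to *H2-Eb2*, and no test of position was run. From *H2-Oa* to *H2-Ob*, 9 of 10 protein-coding genes were well above background on 8 of 8 arrays by their best probe, the exception being *H2-DMb2*. On a single array 47.7% to 55.0% of all probes were so, which is not a like measure. The share of all genes read on 8 of 8 arrays by their best probe is not given, so 9 of 10 is only described. This stretch holds both DM genes, *Brd2*, the immunoproteasome subunits *Psmb8* and *Psmb9*, and the peptide transporter genes *Tap1* and *Tap2*. The next 4 genes, *H2-Ab1*, *H2-Aa*, *H2-Eb1* and *H2-Eb2*, were read on 1, 0, 0 and 0 arrays. *H2-Ob*, the last gene of the first stretch, had 2 probes that disagreed, on 8 arrays and on 0. *H2-DMb1* and *H2-DMb2* are close copies, and binding of the RNA of either to the probe of the other was not tested.

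**Figure D2:**
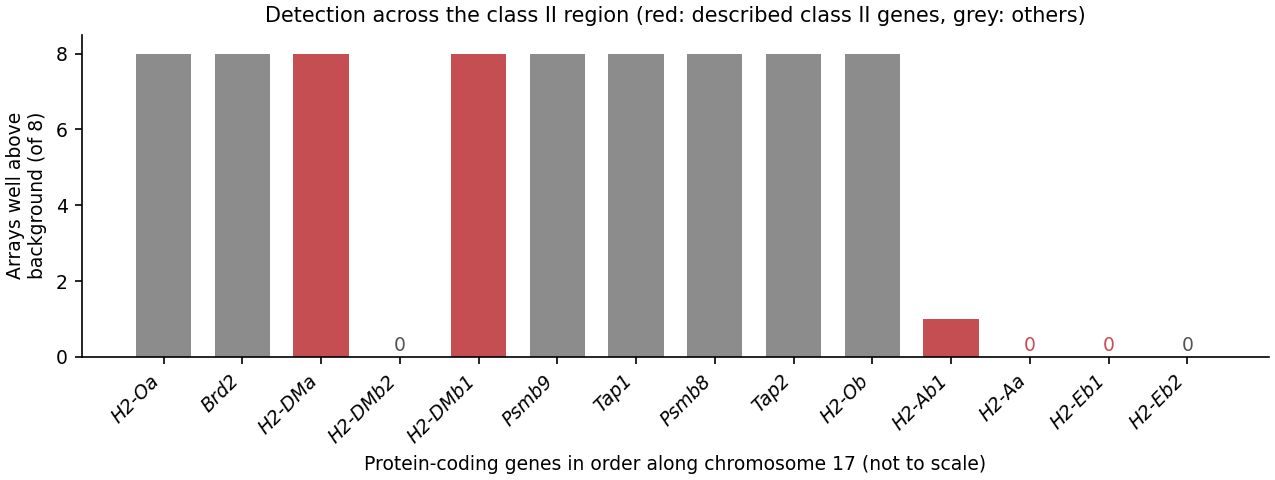
Number of arrays, of 8, on which the best probe of each protein-coding gene was well above background (y axis), with genes in their order along chromosome 17 (x axis, not to scale). Described class II genes are in red and others in grey. All bars reach 8 as far as *H2-Ob* except that of *H2-DMb2*, and the last 4 genes stand at 1, 0, 0 and 0.

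The comparisons ask what LPS did alone, what HF did alone, what HF did in the presence of LPS, what LPS did in the presence of HF, and whether the LPS difference was the same with and without HF (the interaction). The comparisons share arrays with one another. The limma model was fitted to 22460 genes over all 8 arrays. Features without a gene symbol were counted as genes too, here and in every share of all genes below. The two-sided p-values were adjusted by Benjamini-Hochberg over all 22460, and the threshold for passing was 0.05. Of the 7 genes, 3 passed the filter on dim probes and were tested, *Cd74*, *H2-DMa* and *H2-DMb1*. None of the 3 passed in any comparison. Of all genes, 11.1% passed for LPS against control and 0.882% for HF against control. The share was 6.25% for LPS+HF against LPS, 1.28% for LPS+HF against HF and 0.0534% for the interaction. At an unadjusted p under 0.05, 1 of the 3 genes stood out in each comparison. For all genes that rule took 29.6%, 19.7%, 23.9%, 9.36% and 11.6%, in the same order, so 1 of 3 is not a result about these genes. No other tool was run, and an exact permutation test of 2 arrays against 2 cannot go below p = 0.333.

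**Figure D3:**
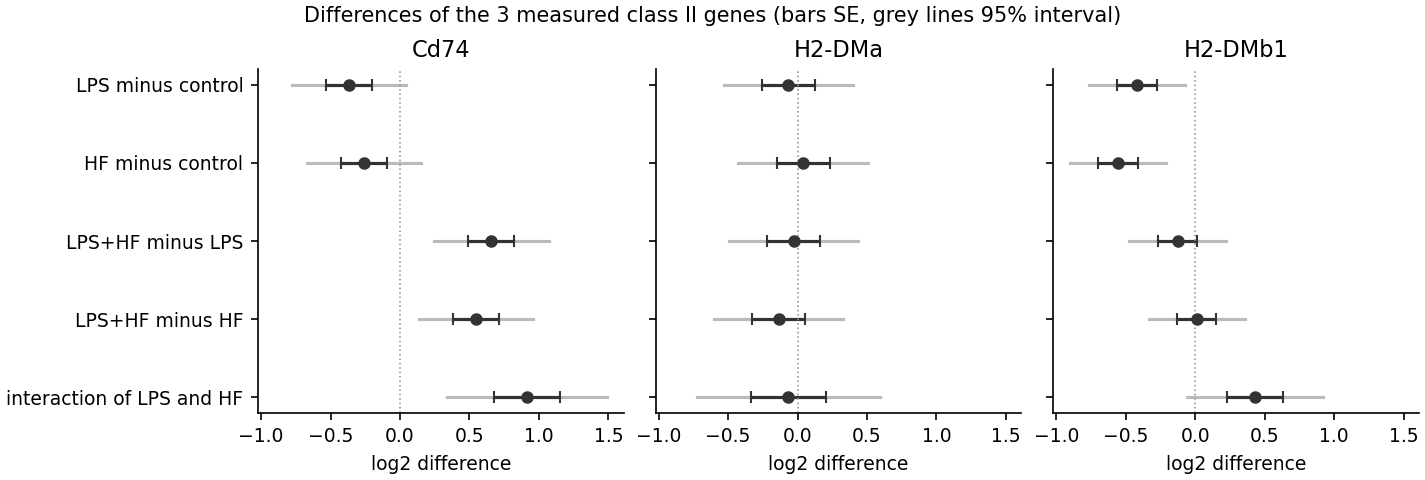
Log2 difference (x axis) of *Cd74*, *H2-DMa* and *H2-DMb1* in the 5 comparisons (y axis). Points are limma estimates from 2 arrays a group, black bars the SE and grey lines the 95% interval. The *Cd74* intervals lie right of 0 in both comparisons of LPS+HF and in the interaction, those of *H2-DMb1* left of 0 for LPS and for HF alone, and all those of *H2-DMa* across 0. None passed after adjustment.

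*Cd74* encodes the invariant chain, the class II chaperone that also serves at the cell surface as a receptor for the cytokine MIF. It read 5.23 and 4.87 in the control, 4.69 and 4.68 with LPS, 4.76 and 4.83 with HF, and 5.42 and 5.27 with LPS+HF. The means were 5.05 ± 0.25 (SD, n = 2), 4.68 ± 0.0079, 4.79 ± 0.051 and 5.34 ± 0.11. Both LPS+HF arrays lay above the other 6, and the LPS and HF arrays lay below both control arrays. Before the shift by the array's brightness the signals were 9276 and 7670, 7293 and 7331, 9359 and 13437, and 22540 and 17480, in the same order of groups. After that shift, but not before it, the control arrays lay farther apart than those of any other group.

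The estimate for *Cd74* in LPS+HF minus LPS was 0.66 ± 0.167 log2, or 1.58-fold, with a 95% interval of 0.248 to 1.07 and an adjusted p of 0.077 in limma. Against HF alone LPS+HF was 0.55 ± 0.167 log2 higher, 1.46-fold, with an adjusted p of 0.32 in limma. For LPS minus control the estimate was -0.37 ± 0.167 (adjusted p 0.20 in limma), and for HF minus control -0.26 ± 0.167 (adjusted p 0.39 in limma). The arrays did not overlap in any of these 4 comparisons, but the same was true of 57.1% of all genes for LPS against control and 46.1% for HF against control, and of 73.9% and 53.3% for LPS+HF against LPS and against HF. The interaction was 0.92 ± 0.237, interval 0.337 to 1.49, with an adjusted p of 0.26 in limma.

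The call on *Cd74* changed with the arrays and settings used. LPS+HF minus LPS passed in limma without control replicate 1 or without control replicate 2 (adjusted p 0.011 each), with only the 4 arrays compared (0.016), and after the spatial correction (0.024). The other *Cd74* estimates turned on which control array was kept. LPS minus control was -0.19 without control replicate 1 (adjusted p 0.31) and -0.55 without control replicate 2 (0.014). HF minus control was -0.08 and -0.44 (0.70 and 0.032), and the interaction 0.74 and 1.1 (0.099 and 0.0073), in the same order. With median scaling LPS minus control was -0.0217. Over the 22 alternatives tried, LPS+HF minus LPS kept its direction and ran from 0.572 to 0.81, with adjusted p from 0.011 to 0.37.

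Markers of dendritic and B cells, which carry much class II, were read beside *Cd74*. Of 9 such markers 3 were above background on all arrays, *Zbtb46*, *Cd79a* and *Cd79b*, and *Xcr1*, *Cd209a*, *Ms4a1* and *Pax5* on none. Their summed level, in units of the array's 75th percentile, was 0.894 to 1.27 in the control, 0.921 to 0.978 with LPS, 0.854 to 1.02 with HF and 1.33 to 1.37 with LPS+HF. The sum was highest with LPS+HF, as was *Cd74*, but its rise over LPS came mostly through *Cd79b*. That gene had a mean of -2.29 with LPS and -0.575 with LPS+HF, so the sum does not speak for the whole list. The part of these markers in the *Cd74* values was not tested. The 4 tested markers went in both directions in LPS+HF minus LPS. *Cd79b*, a chain of the B cell receptor, stood at 1.72 ± 0.45 log2 without passing (adjusted p 0.081 in limma), and *Zbtb46* at -0.42 ± 0.22 and *Cd79a* at -0.19 ± 0.21 (adjusted p 0.31 and 0.65 in limma). *Flt3*, a receptor of dendritic cell precursors, rose by 1.28 ± 0.21 (adjusted p 0.03 in limma), but was above background on only 1 of the 2 LPS arrays, and its estimate was 0.345 with normexp and quantile normalization (adjusted p 0.35 in limma).

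The macrophage identity of the line was plain on every array. All 10 macrophage and microglia markers were above background on 8 of 8 arrays, with a summed level of 887.5 to 980.5 in the control, 883 to 916 with LPS, 646 to 651 with HF and 709 to 782 with LPS+HF. *Adgre1*, which encodes F4/80, rose by 1.81 ± 0.18 log2 with LPS (adjusted p 0.0045 in limma) and by 1.44 ± 0.18 in LPS+HF minus HF (adjusted p 0.021 in limma), and *Ptprc* rose by 0.67 ± 0.14 with LPS (adjusted p 0.032 in limma). *Aif1* fell by 1.44 ± 0.20 in HF minus control (adjusted p 0.047 in limma), and in LPS+HF minus LPS *Lyz2* fell by 1.59 ± 0.30 and *Ptprc* by 0.83 ± 0.14 (adjusted p 0.039 and 0.028 in limma). Of 8 markers of astrocytes, neurons, fibroblasts and T cells, *Aqp4*, *Cd3e* and *Cd8a* were above background on all 8 arrays, *Gfap* and *Rbfox3* on some, and *Syt1*, *Col1a1* and *Pdgfra* on none. Their summed level was 5.11 to 5.70 in the control, 6.43 to 6.57 with LPS, 6.32 to 7.46 with HF and 5.83 to 7.26 with LPS+HF. Most of that sum was the signal of *Cd3e*, whose group means ran from 2.30 to 2.64 log2.

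*H2-DMb1*, the β chain of the peptide editor, read 1.66 and 1.82 in the control, 1.38 and 1.26 with LPS, 1.20 and 1.16 with HF, and 1.27 and 1.12 with LPS+HF. The means were 1.74 ± 0.11 (SD, n = 2), 1.32 ± 0.086, 1.18 ± 0.027 and 1.19 ± 0.11. Both control arrays lay above the other 6, and the 3 treated groups differed little: LPS+HF overlapped both LPS and HF. Arrays also did not overlap for 57.1% of all genes in LPS against control and for 46.1% in HF against control. The differences from the control were -0.42 ± 0.142 with LPS (adjusted p 0.12 in limma) and -0.56 ± 0.142 with HF (adjusted p 0.14 in limma). As folds these are 1.34 and 1.47 lower.

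LPS+HF minus LPS was -0.13 ± 0.142 for *H2-DMb1*, with an interval of -0.473 to 0.219, and LPS+HF minus HF was 0.01 ± 0.142, from -0.335 to 0.357. The interaction was 0.43 ± 0.20 (adjusted p 0.49 in limma). Both differences from the control rest on the control arrays, of which replicate 1 has the array faults given below: LPS minus control passed in limma without control replicate 1 (-0.50, adjusted p 0.048), and HF minus control without control replicate 2 (-0.48, adjusted p 0.029). After each array was shifted to its median the LPS difference was -0.0727 and that of HF -0.172, and with normexp background correction and quantile normalization they were -0.811 and -0.913.

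*H2-DMa*, the α chain of the same editor, read -2.64 and -2.34 in the control, -2.46 and -2.65 with LPS, -2.61 and -2.29 with HF, and -2.68 and -2.49 with LPS+HF. All 4 groups overlapped. Its estimates were -0.07 ± 0.191 for LPS and 0.04 ± 0.191 for HF against the control, -0.03 ± 0.191 for LPS+HF minus LPS and -0.14 ± 0.191 for LPS+HF minus HF, and adjusted p ran from 0.83 to 0.95 in limma. The 95% interval was -0.533 to 0.398 log2 for LPS minus control and -0.601 to 0.33 for LPS+HF minus HF. Its signals were 39.6 to 96.3, and several of its estimates changed sign with the scaling.

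The 3 genes did not follow one another across the 8 arrays. Pearson's r was 0.141 between *H2-DMa* and *H2-DMb1*, -0.341 between *H2-DMa* and *Cd74*, and 0.0141 between *H2-DMb1* and *Cd74*. The arrays fall into 4 treatment groups and share 1 slide, so these values describe the arrays and carry no test. Among 11155 other genes above background on all arrays, *Rnf19a* (r = 0.986), *Cenpw* (0.94) and *Il10rb* (0.937) tracked *Cd74* most closely, although *Rnf19a* spanned only 0.154 log2. The nearest to *H2-DMb1* were *Evi2a* (0.977), *Angpt2* (0.967) and *F10* (0.966), and to *H2-DMa* they were *Shisa4* (0.885), *Coa7* (0.882) and *Mamdc4* (0.869).

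The other class II chains were also read unevenly. *H2-Oa* and *H2-Ob*, which form the DO modulator of the DM editor, were above background on all arrays, and *H2-DMb2*, a second DM β chain, and *H2-Eb2* on none. For *H2-Ob* this holds for 1 of its 2 probes. *H2-Oa* had a larger estimate than *Cd74* in LPS+HF minus LPS, 1.13 ± 0.32 log2, and did not pass (adjusted p 0.099 in limma). *H2-Ob* stood at -0.05 ± 0.23 there (adjusted p 0.93 in limma). Neither passed in any comparison. At an unadjusted p under 0.05 there was 1 in LPS+HF minus LPS and 1 in the interaction, beside 23.9% and 11.6% of all genes, and 0 in the others.

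Of 7 genes for the factors that hold CIITA at the X and Y boxes, 5 were above background on all arrays. *Rfx5*, the large subunit of the X box complex, was so on 1 of 8 arrays and was not tested. *Nfyc*, a subunit of the Y box factor NF-Y, fell by 0.98 ± 0.20 log2 with LPS (adjusted p 0.034 in limma). It was the only one of 6 tested that passed, beside 11.1% of all genes, and none passed in the other 4 comparisons. In LPS+HF minus LPS it stood at 0.93 ± 0.20 (adjusted p 0.054 in limma). *Rfxank*, a subunit of the X box complex, stood at -0.68 ± 0.16 there (adjusted p 0.066 in limma).

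On the route from interferon-γ to *Ciita*, *Ifng* itself was above background on no array. Of 11 genes tested, *Jak1*, a kinase of the receptor, rose by 0.82 ± 0.16 log2 with LPS (adjusted p 0.028 in limma), and *Ifngr1*, the ligand-binding receptor chain, fell by 0.73 ± 0.14 (adjusted p 0.026 in limma). The other 9 did not pass, while 11.1% of all genes passed with LPS, and none of 11 passed in the other 4 comparisons. In LPS+HF minus LPS *Irf8*, a transcription factor of this route, stood at -0.03 ± 0.81 and *Jak1* at -0.25 ± 0.16 (adjusted p 0.99 and 0.40 in limma).

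The genes for cutting the invariant chain and processing antigen were read on every array, 9 of 9. Most encode endosomal proteases, while *Cst3* encodes a protease inhibitor and *Ifi30* a thiol reductase. With LPS 1 of 9 passed, beside 11.1% of all genes: *Ctsd*, the aspartic protease cathepsin D, rose by 0.61 ± 0.12 log2 (adjusted p 0.034 in limma). In LPS+HF minus LPS it was again the only one, beside 6.25% of all genes, and fell by 0.83 ± 0.12 (adjusted p 0.024 in limma). *Ctss*, cathepsin S, which makes the last cuts of the invariant chain, stood at -0.51 ± 0.14 in that comparison (adjusted p 0.09 in limma), and *Ctsb* at -0.81 ± 0.17 (adjusted p 0.052 in limma). In HF minus control *Ctsl* stood at -0.22 ± 0.16 and *Ctsb* at -0.81 ± 0.17 (adjusted p 0.45 and 0.11 in limma). The median over the list was 0.0415 with LPS and -0.289 in LPS+HF minus LPS, beside -0.081 and -0.073 for all genes tested.

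Genes for the turnover of surface class II, *Marchf1*, *Marchf8* and *Cd83*, were read on all arrays, and none of the 3 passed in any comparison on the probes tested. The probes of *Marchf1* disagreed with LPS: the one tested stood at -0.38 ± 0.19 (adjusted p 0.24 in limma). Probe A_51_P121031 had means of -4.045 ± 0.37 (SD, n = 2) in the control and -2.24 ± 0.044 with LPS. It was above background on both LPS arrays and on no control array. *Marchf1*, the ubiquitin ligase that sends class II to degradation, stood at -0.80 ± 0.19 in HF minus control (adjusted p 0.13 in limma) and -0.60 ± 0.19 in LPS+HF minus LPS (adjusted p 0.12 in limma). *Cd83*, which opposes that ligase, stood at 1.12 ± 0.65 in LPS+HF minus LPS (adjusted p 0.37 in limma). At an unadjusted p under 0.05 there was 1 of 3 for LPS alone, for HF alone and for LPS+HF against LPS, and 0 in the other comparisons. For all genes that rule took 29.6%, 19.7% and 23.9% in these 3 comparisons, so 1 of 3 is not a result about these genes.

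For the role of CD74 as a MIF receptor, 5 genes were tested and 3 passed with LPS, beside 11.1% of all genes. *Ddt*, a homologue of MIF that binds CD74, rose by 0.88 ± 0.14 log2 (adjusted p 0.017 in limma). The chemokine receptors that pair with CD74 fell, *Cxcr4* by 1.44 ± 0.19 (adjusted p 0.01 in limma) and *Cxcr2* by 2.33 ± 0.39 (adjusted p 0.019 in limma). *Cxcr2* was above background on only 1 of the 2 LPS arrays, so the size of its fall rests partly on a value not above background. *Mif* stood at -0.37 ± 0.15 and did not pass (adjusted p 0.16 in limma). The probes of *Cd44*, the signalling partner, disagreed: the one tested stood at 0.53 ± 0.22 with LPS (adjusted p 0.17 in limma), while probe A_55_P2064043, also above background on all arrays, had means of 3.64 ± 0.72 (SD, n = 2) in the control and 2.03 ± 0.087 with LPS. None of the 5 passed in the other 4 comparisons. On the tested probes *Mif* stood at -0.06 ± 0.15 and *Ddt* at 0.05 ± 0.14 in LPS+HF minus LPS (adjusted p 0.86 and 0.87 in limma).

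The MHC class I genes, which present peptides from inside the cell, lie partly within the same stretch and are set beside the class II genes. This list too was chosen with earlier results of these data known, so its changes do not show whether a class II change was detectable. With LPS 5 of 9 rose, while 11.1% of all genes passed in either direction. All 9 estimates were above 0 (8 of 9 with normexp and quantile normalization), with a median of 0.845 log2. *Tap1* rose by 1.91 ± 0.24 (adjusted p 0.0092 in limma), *Tapbp*, the tapasin gene, by 1.66 ± 0.21 (adjusted p 0.009 in limma), *H2-D1* by 1.48 ± 0.29 (adjusted p 0.03 in limma) and *Tap2* by 1.09 ± 0.15 (adjusted p 0.012 in limma). *H2-K1* also rose, by 0.62 ± 0.14 (adjusted p 0.046 in limma). The 3 tested class II genes had estimates of -0.42, -0.37 and -0.07 in the same comparison, all below 0, although that of *H2-DMa* was above 0 with quantile normalization and with median scaling. In LPS+HF minus LPS *Tap1* fell by 1.40 ± 0.24 (adjusted p 0.034 in limma) and *Tap2* by 0.82 ± 0.15 (adjusted p 0.037 in limma), beside 6.25% of all genes passing. None of the 9 estimates was above 0 there, and *Cd74* stood at 0.66. The difference between the class I and class II lists was not tested. Without LPS replicate 1, or without LPS replicate 2, 0 of 9 class I genes passed with LPS, and all 9 estimates were above 0. With median scaling 1 of 9 passed with LPS, and with only the 4 arrays compared 0 did. The count that fell in LPS+HF minus LPS was 5 of 9 without control replicate 1, without control replicate 2 or with only the 4 arrays compared, and 0 without any 1 of the LPS, HF or LPS+HF arrays.

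**Figure D4:**
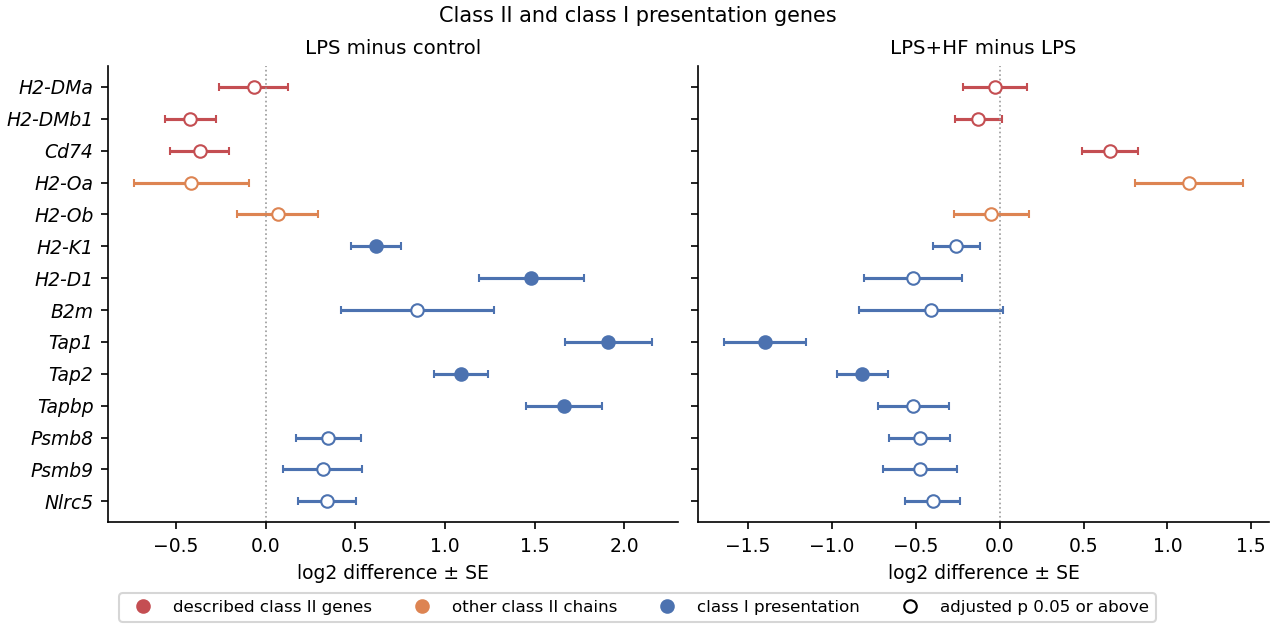
Log2 difference ± SE (x axis, limma, 2 arrays a group) of class II genes (red), other class II chains (orange) and class I presentation genes (blue) in LPS minus control and LPS+HF minus LPS. Filled points passed at an adjusted p under 0.05. With LPS the 9 class I estimates lie right of 0 and 5 are filled, and the class II points are open. In LPS+HF minus LPS *Tap1* and *Tap2* are filled on the left, and *Cd74* and *H2-Oa* are open on the right.

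Over the 7 lists beside the described genes, class I included, 45 of 50 genes were tested. With LPS 8 rose and 4 fell, beside 11.1% of all genes passing, and in LPS+HF minus LPS 3 fell, beside 6.25%. None passed in HF minus control, LPS+HF minus HF or the interaction, where 0.882%, 1.28% and 0.0534% of all genes did. At an unadjusted p under 0.05 these last 3 comparisons had 7, 7 and 10 of 45, beside 19.7%, 9.36% and 11.6% of all genes. Each of the calls printed for genes of these and the marker lists was lost without LPS replicate 1 and without LPS replicate 2, though each kept its direction. With median scaling *Nfyc* stood at -0.637, *Ifngr1* at -0.384, *Ctsd* at 0.955, *H2-K1* at 0.963 and *Ptprc* at 1.02 in LPS minus control. With normexp and quantile normalization *Jak1* stood at 0.337, *Cxcr2* at -1.44, *H2-D1* at 2.82, *Tap2* at 1.65 and *Ptprc* at 1.34 there, and *Aif1* at -0.426 in HF minus control. None of these passed (adjusted p 0.053 to 0.64 in limma).

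All 8 arrays were on 1 slide and in 1 scan, with the HF groups in the second slide row and the LPS groups in the last 2 columns, so position on the slide and treatment cannot be told apart. Between 47.7% and 55.0% of probes were above background. Repeat probes varied by a CV of 48.9% on control replicate 1, whose spot grid the scanner did not rate as good, by 8.06% on HF replicate 1, and by 3.77% to 4.59% on the others. The SD of the difference between duplicates over genes was 0.991 log2 in the control, 0.488 with HF, 0.344 with LPS+HF and 0.276 with LPS. Comparisons with the control therefore rest on the least even pair.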

How the data were processed

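Messenger RNA of BV-2 cells was measured on 8 single-colour Agilent arrays in 4 groups of 2. Per the file headers, the deposited intensity of each spot was made by Agilent Feature Extraction 11.5.1.1 with background subtraction and trend correction. The deposited log2 matrix of the authors equalled these signals after subtraction of the array's 75th percentile and then of the probe's median, within 0.05 for 99.95% of values; its column medians ran from -0.112 to 0.188. It served as an alternative.

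Repeated spots were averaged as log2 values minus the array's 75th percentile. Symbols came from RefSeq transcript names for 28026 of 55681 probes (50.3%), and other probes kept the file's name. A probe was kept where 1 group or more had it well above background on both arrays (30342 probes). Taking the brightest kept probe of a gene gave 22460 genes, with features that had no symbol counted under their own name. Group means were fitted with limma 3.58.1 in R 4.3.3 (4 residual and 2.04 prior degrees of freedom). The fit was tested on simulated data. Plots and tables used Python 3.11.15, numpy 2.4.6, pandas 2.3.3 and matplotlib 3.10.9.

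The described genes and all lists were chosen with earlier results of these data known. Named from each other list were up to 4 passing genes per comparison, largest first, or, where none passed, the 2 with the highest mean in the comparisons described. Other genes beside them were chosen for their known role after their values were seen. For likeness the 3 highest r were named. Alternatives were normexp with an offset of 50 and quantiles, quantile normalization by itself, a shift to the median, the percentile over detected probes, the matrix, no filter, detection on all arrays, the mean over probes, each probe, a trended robust variance, only the arrays compared, a replicate block, a spatial correction (local deviation in windows of 30 rows and 15 columns, with masking of areas dimmed over 4-fold before the scanner's trend correction), and each array left out. A fit without control replicate 1 and HF replicate 1, which the scanner marked, was added after the data were seen. Same-numbered duplicates deviated together with correlations of -0.0868 to 0.266, so the numbers were not taken as pairs. A slide or scan block was not possible, with 1 of each. The number of arrays limits the precision.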

Additional observations from a re-analysis of the deposited data

Results flagged for a closer look

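The LPS difference of *Cd74* pointed in opposite directions without and with HF. Without HF both LPS arrays, at 4.69 and 4.68, lay below both control arrays, at 5.23 and 4.87. With HF both LPS+HF arrays, at 5.42 and 5.27, lay above both HF arrays, at 4.76 and 4.83. In limma the LPS difference without HF was -0.37, with a 95% interval of -0.778 to 0.0407. It was -0.188 without control replicate 1 and -0.0217 with median scaling. Arrays of LPS and control were separated for 57.1% of all genes, and those of LPS+HF and HF for 53.3%. The difference of the differences was 0.916 log2, and its limma test gave an adjusted p of 0.26, which did not pass. Over 21 alternatives it ran from 0.683 to 1.1 with adjusted p from 0.0073 to 0.82, and 1 of them passed, the one without control replicate 2.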

How the results depend on the processing

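The count of class II genes that passed was 0 in every comparison, and in most alternatives. It was 1 (*Cd74*) for LPS+HF minus LPS with only the arrays compared, after the spatial correction and without both arrays marked by the scanner. Leaving out single arrays gave 0 to 1 for LPS minus control, for LPS+HF minus LPS and for the interaction, and 0 to 2 for HF minus control, in each case through a control array; a lone array was assumed to vary like the other groups. Estimates of *H2-DMa* changed sign with normexp (-0.20 for HF minus control, 0.107 for LPS+HF minus LPS, 0.0371 for LPS+HF minus HF, 0.307 for the interaction), with quantile normalization (0.172 for LPS minus control, 0.0985 for LPS+HF minus LPS), with median scaling (0.279 and 0.124 for the same), and with the spatial correction (-0.0767 for HF minus control). *H2-DMb1* reversed with normexp (-0.0999) and quantile normalization (-0.00455) for LPS+HF minus HF and with median scaling (0.0253) for LPS+HF minus LPS, and *Cd74* with median scaling (0.127) for HF minus control. None of these reversed values passed, and the cause was not tested. Median scaling moved the median of all genes to 0.27 for LPS minus control, 0.32 for HF minus control and -0.21 for the interaction. With single arrays left out, *H2-DMa* ran from -0.214 to 0.0796 for LPS minus control, -0.117 to 0.197 for HF minus control, -0.125 to 0.068 for LPS+HF minus LPS, -0.293 to 0.0211 for LPS+HF minus HF and -0.225 to 0.0884 for the interaction, and *H2-DMb1* from -0.0645 to 0.086 for LPS+HF minus HF. The replicate number as a replicate block left 0 class II genes passing in every comparison, with *Cd74* at 0.657 (adjusted p 0.11 in limma) for LPS+HF minus LPS, and of the 9 class I genes it left 3 rising with LPS and 0 falling in LPS+HF minus LPS, where the count without the block was 2 and ran from 0 to 5 with single arrays left out. The 22 calls in other lists had the same direction in each alternative that could test them, and passed in 8 to 19 of them. Signal near background left 4 of the 7 genes untested.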
